A study of Mus musculus with 30 samples.

Results

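The 10 genes described here are a set chosen by function: the phagocytic receptor kinases *Mertk* and *Axl*, their bridging ligands *Gas6* and *Pros1*, the phosphatidylserine receptors *Timd4* and *Stab1*, and the scavenger and lectin receptors *Cd36*, *Msr1*, *Mrc1* and *Cd163*. They are 10 of 45317 gene symbols in the count tables, and all 10 were among the 11566 genes that passed the filter on low counts. RNA was sequenced from 8 populations sorted from 4 mice (numbered 22, 23, 24 and 26) of the strain C57BL6.CCR2RFP/WT, aged 12 to 18 weeks, which carry a red reporter in place of 1 copy of *Ccr2*. All mice bore intracranial GL261 tumors, a transplanted mouse glioma line made to express a membrane-anchored GFP, and no tumor-free mouse was analysed here. Ly6Chigh and Ly6Clow monocytes came from the blood of mice 22, 23 and 24. Glioma monocytes (F4/80 positive and Ly6C high; mice 22, 24 and 26), CCR2high macrophages and CCR2low macrophages (4 mice each) came from the dissociated brain, each as GFPpos cells, which had taken up tumor membrane, and GFPneg cells, which had not. Levels are CPM, read counts scaled to a common library total after TMM normalization, and values in a row are given in the order of the mouse numbers.

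A dying cell exposes phosphatidylserine on its outer membrane. MERTK and AXL, receptor kinases of the TAM family, bind it through the soluble bridging proteins GAS6 and protein S (the product of *Pros1*), whereas TIM-4 (*Timd4*) and stabilin-1 (*Stab1*) bind it directly. CD36 takes up oxidized lipids and apoptotic cells, MSR1 (scavenger receptor A) modified lipoproteins and other polyanions, the mannose receptor MRC1 glycoproteins, and CD163 haptoglobin-hemoglobin complexes. Macrophages use these receptors to clear corpses and debris, and MERTK and AXL are also known from microglia and tumor macrophages.

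On GRCm38 (GENCODE vM21), *Mertk* lies at chr2:128698956-128802894 (plus strand), *Axl* at chr7:25757273-25788705 (minus), *Gas6* at chr8:13465374-13494490 (minus) and *Pros1* at chr16:62854307-62929346 (plus). *Timd4* lies at chr11:46810800-46844332 (plus), *Stab1* at chr14:31139013-31168641 (minus), *Cd36* at chr5:17781690-17888801 (minus), *Msr1* at chr8:39581685-39642673 (minus), *Mrc1* at chr2:14229392-14332057 (plus) and *Cd163* at chr6:124304656-124330527 (plus). Exons of *Gas6* overlap those of *Tmem255b* and exons of *Stab1* those of *Nt5dc2*, so their counts are uncertain where reads of both could not be told apart.

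The 250 bases before the transcription start of 5 genes on which the comparisons with blood and between GFPpos and GFPneg cells turn are shown from RefSeq (GRCm38.p6), 5′ to 3′ on the strand of the gene. They are chr2:128698665-128698914 (plus), chr7:25788734-25788983 (minus), chr8:13494536-13494785 (minus), chr14:31168642-31168891 (minus) and chr2:14229164-14229413 (plus). Capitals mark GAGGAA, the purine box bound by the myeloid factor PU.1, and GGGCGG, the GC box, on either strand.
Mertk: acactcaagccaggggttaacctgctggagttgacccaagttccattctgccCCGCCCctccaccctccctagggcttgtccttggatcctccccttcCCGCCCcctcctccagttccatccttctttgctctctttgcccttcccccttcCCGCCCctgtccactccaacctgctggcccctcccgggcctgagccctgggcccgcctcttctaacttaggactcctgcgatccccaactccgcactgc
Axl: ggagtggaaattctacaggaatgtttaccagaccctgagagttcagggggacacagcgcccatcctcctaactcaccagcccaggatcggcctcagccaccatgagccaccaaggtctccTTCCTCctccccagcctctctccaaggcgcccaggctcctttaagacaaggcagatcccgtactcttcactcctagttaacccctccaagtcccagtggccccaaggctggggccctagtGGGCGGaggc
Gas6: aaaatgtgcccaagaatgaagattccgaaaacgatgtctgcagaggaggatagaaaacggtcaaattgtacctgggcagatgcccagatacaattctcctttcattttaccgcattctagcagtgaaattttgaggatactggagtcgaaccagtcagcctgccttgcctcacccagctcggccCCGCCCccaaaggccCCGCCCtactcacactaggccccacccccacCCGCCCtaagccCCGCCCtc
Stab1: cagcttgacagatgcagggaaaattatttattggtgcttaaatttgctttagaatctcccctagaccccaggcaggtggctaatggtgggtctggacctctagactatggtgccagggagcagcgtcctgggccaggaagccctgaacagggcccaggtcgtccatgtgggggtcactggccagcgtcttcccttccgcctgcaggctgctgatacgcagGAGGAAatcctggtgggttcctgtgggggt
Mrc1: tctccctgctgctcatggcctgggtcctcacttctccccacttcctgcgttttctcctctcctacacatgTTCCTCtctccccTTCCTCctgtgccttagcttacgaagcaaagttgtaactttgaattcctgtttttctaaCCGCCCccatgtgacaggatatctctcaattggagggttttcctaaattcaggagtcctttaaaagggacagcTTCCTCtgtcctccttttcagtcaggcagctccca

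Of the 10 genes, 9 had an entry. GAGGAA was present upstream of 3 of these 9 (*Axl*, *Stab1* and *Mrc1*) and of 23.3% of 32851 promoters, and GGGCGG upstream of 6 of 9 and of 32.7%. *Mertk* and *Gas6* held several GC boxes and no GAGGAA, and *Stab1* held GAGGAA and no GC box. Of 8 further motifs searched on both strands, TGCTGA was found upstream of 3 of the 9 (16.1% of all promoters), AGGTCA of 2 (14.02%) and CGGAAG of 1 (13.6%). CACGTG (6.02%), TGANTCA (6.75%), TTGCNNAA (9.56%), the IRF-type repeat (2.98%) and TGTGGT (14.05%) were found upstream of 0 of the 9. These matches describe the letters of these windows only.

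Of 30 libraries, 1 failed the quality rule and was left out, and a pair from the same sample was summed, which gave 28 replicates of 1553616 to 5689644 counts on genes. The monocyte markers summed to 9774 to 10745 CPM in Ly6Chigh blood monocytes, and the macrophage markers to 9742 to 15166 CPM in the brain macrophages against 1648 to 2260 CPM in Ly6Chigh monocytes. Markers of other cells were present in the sorted cells too: 8 microglial markers summed to 2041 to 10886 CPM in the brain populations and 58.6 to 285 CPM in blood, where *Sall1*, *Siglech* and *Sparc* were at 0, and 6 T and NK cell markers to 204 to 1364 CPM in the brain. In bulk samples, fewer cells of a type and less RNA per cell cannot be told apart. Brain and blood cells differed in their preparation (enzymatic dissociation and a density gradient for the brain), and tissue and preparation cannot be told apart.

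**Figure D1:**
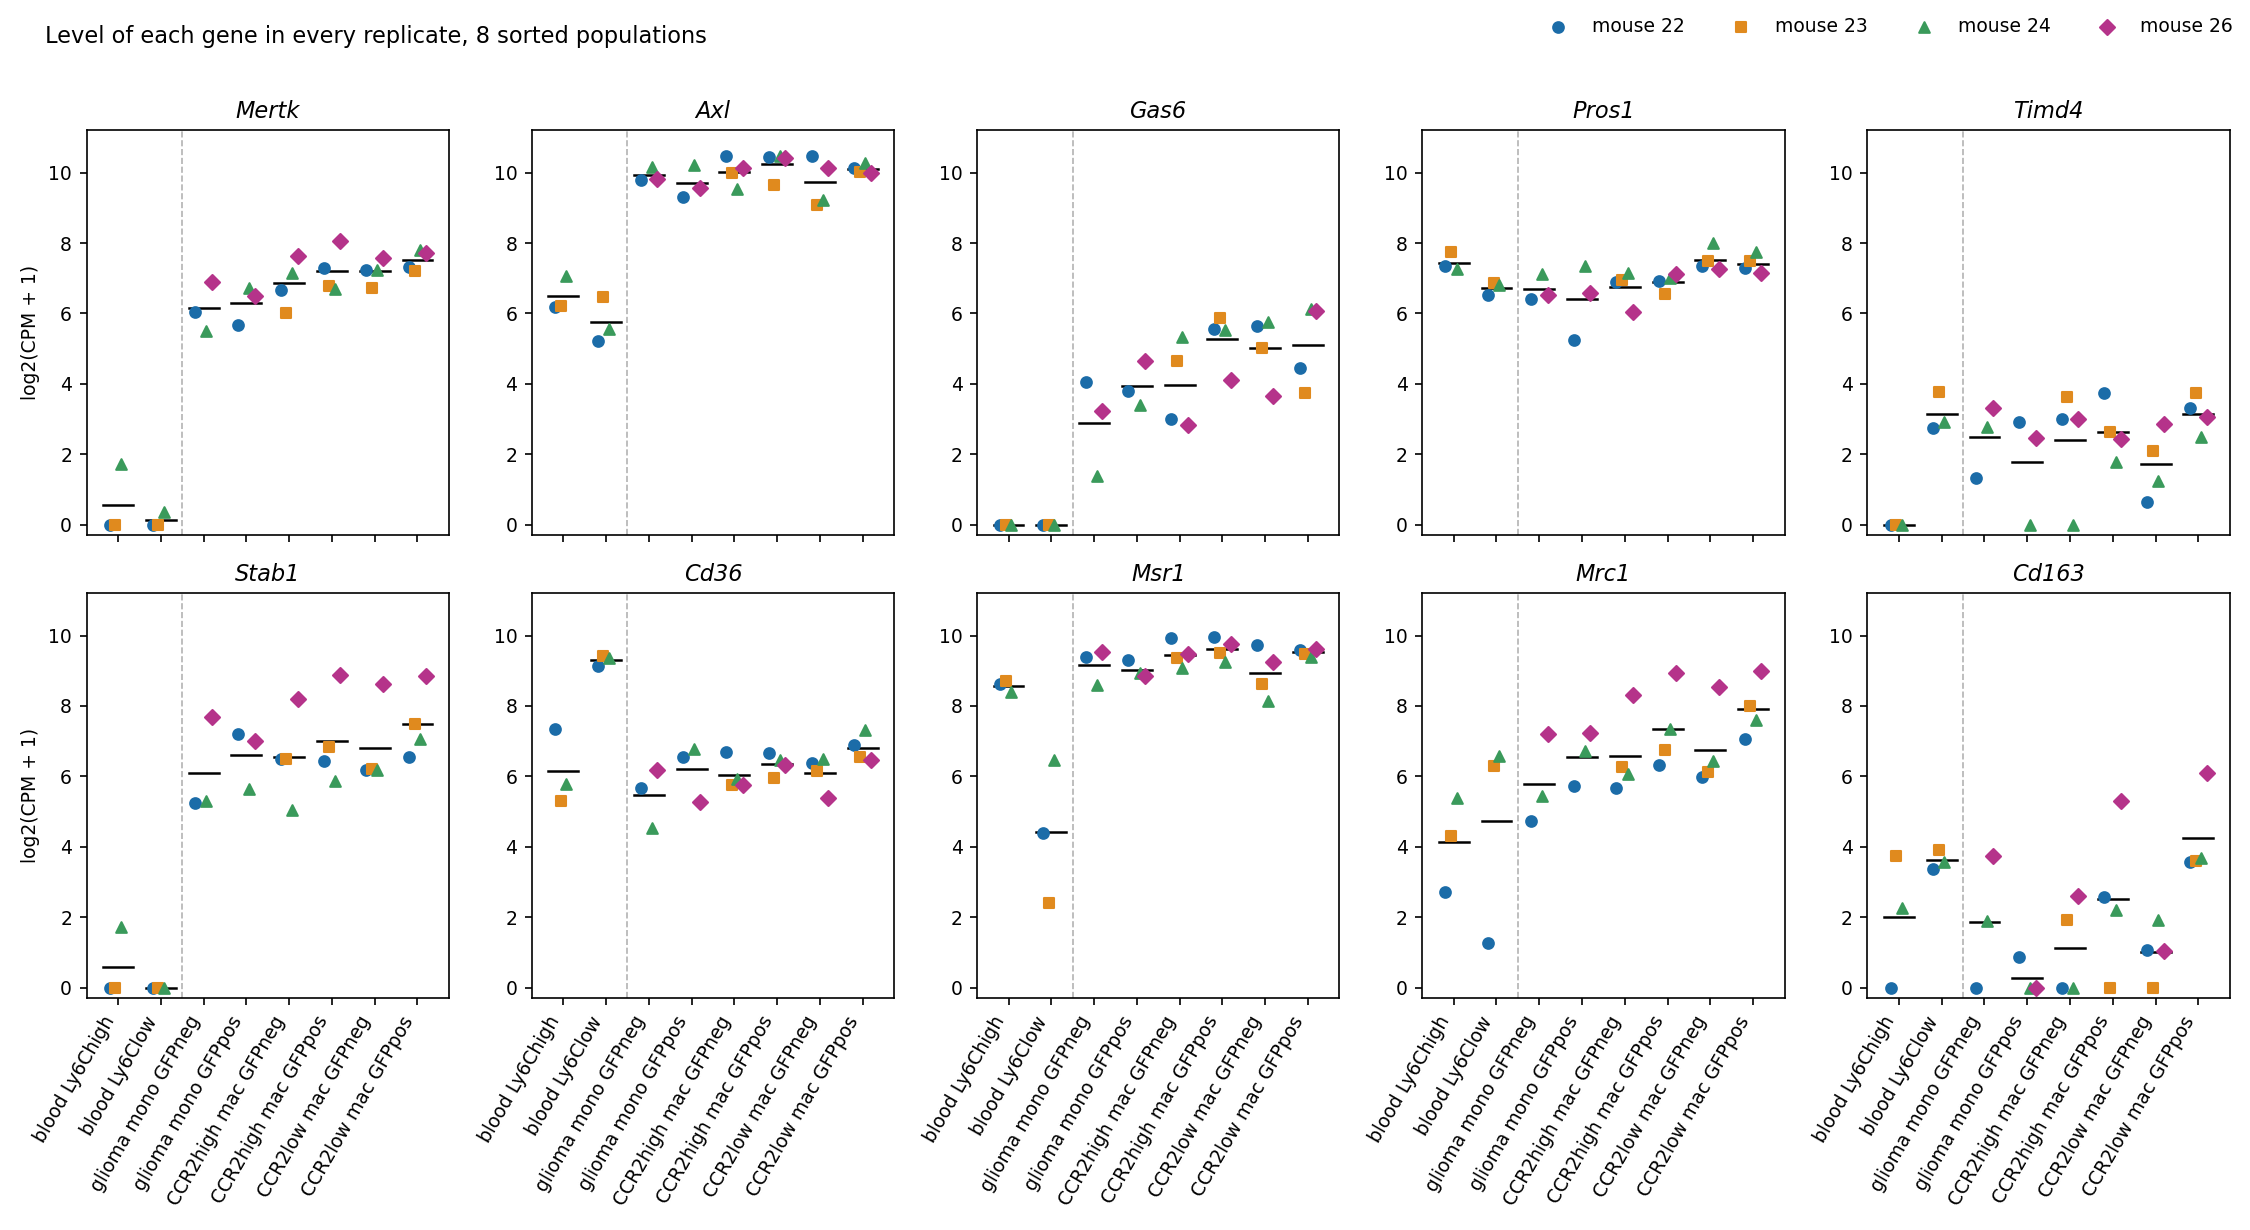
Level of each gene, as log2(CPM + 1), in each of the 28 replicates of 8 sorted populations. Points are replicates, colored by mouse, bars are means, and the dashed line separates blood from brain; *Mertk*, *Gas6* and *Stab1* sit at or near 0 in blood and were detected in every brain replicate, and *Axl* and *Msr1* have high levels in every brain population.

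Per kilobase of exon, the scale on which genes can be compared, *Axl* was the most abundant of the 10 genes in every brain population (mean 171 to 246 CPM per kb), followed by *Msr1* (83.4 to 126 CPM per kb). *Timd4* (1.33 to 3.81 CPM per kb) and *Cd163* (0.0498 to 4.66 CPM per kb) were the least abundant there. The order differed in blood: *Msr1* (60.2 CPM per kb), *Pros1* (42.9), *Cd36* (23.6) and *Axl* (18.5) led in Ly6Chigh monocytes, whereas *Cd36* stood far above the rest in Ly6Clow monocytes (177 CPM per kb, followed by *Pros1* at 25.9).

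*Mertk*, the TAM receptor that macrophages use for steady clearance, was close to absent from blood and present in every brain replicate. Ly6Chigh monocytes had 0, 0 and 2.30 CPM (11 counts, in mouse 24), and Ly6Clow monocytes 0, 0 and 0.296 CPM (1 count). A count of 0 still allows up to 3 counts per library, or 0.627 to 1.76 CPM in the Ly6Chigh replicates, a limit that covers counting error only. GFPneg glioma monocytes of mice 22, 24 and 26 had 65.2, 43.9 and 117 CPM (75.5 ± 37.8, SD, n = 3). The values were 99.7, 63.8, 141 and 198 CPM in GFPneg CCR2high macrophages (125 ± 57.6, n = 4) and 150, 105, 148 and 190 CPM in GFPneg CCR2low macrophages (148 ± 34.5, n = 4). Every brain replicate stood far above every blood replicate.

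Against Ly6Chigh blood monocytes, *Mertk* was higher by a fitted log2 fold change of 6.01 ± 0.69 (SE) in GFPneg glioma monocytes (adjusted p = 6.48e-07, edgeR quasi-likelihood test with Benjamini-Hochberg adjustment over all tested genes). The log2 fold change was 6.74 ± 0.69 in CCR2high (adjusted p = 8.11e-08) and 6.98 ± 0.70 in CCR2low macrophages (adjusted p = 4.93e-08). The size rests on mouse 24, the Ly6Chigh replicate with counts. Without it the blood group is at 0 and the fitted values, which then depend on the prior count, were 10.68, 11.42 and 11.66, all still called.

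*Axl*, the TAM receptor associated with inflammation, was expressed in blood and many times higher in the brain. Ly6Chigh monocytes had 71.9, 73.8 and 133 CPM (93.0 ± 34.9, SD, n = 3), and Ly6Clow monocytes 36.3, 88.3 and 45.9 CPM (56.8 ± 27.7, n = 3). GFPneg glioma monocytes had 887, 1144 and 899 CPM (977 ± 145, n = 3), CCR2high macrophages 1410, 1016, 748 and 1111 CPM (1071 ± 273, n = 4) and CCR2low macrophages 1415, 545, 593 and 1131 CPM (921 ± 423, n = 4). The lowest of these 11 brain values, 545 CPM, was above the highest blood value, and the 3 brain populations overlapped one another. The log2 fold changes against Ly6Chigh monocytes were 3.38 ± 0.39 (SE, adjusted p = 7.06e-07), 3.52 ± 0.38 (adjusted p = 2.34e-07) and 3.30 ± 0.38 (adjusted p = 4.88e-07) in the same order of populations. With scaling on the spike-in RNAs the call was lost in glioma monocytes (2.97, adjusted p = 0.0813).

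The microglial markers moved with *Mertk* and *Axl* between blood and brain. Their sum was 184 to 285 CPM in Ly6Chigh monocytes, 2041 to 3371 CPM in GFPneg glioma monocytes, 2672 to 5490 CPM in GFPneg CCR2high and 4041 to 10886 CPM in GFPneg CCR2low macrophages, and all 8 were detected in each brain population. Their part in the differences was not tested. Within brain populations the sum was highest in mouse 24 in 6 of 6, *Axl* in 4 of 6 and *Mertk* in 2 of 6.

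The ligands differed from each other. *Gas6*, which binds all TAM receptors, was at 0 in all 6 blood replicates. It was low and detected in every GFPneg brain replicate: 15.6, 1.61 and 8.39 CPM in glioma monocytes (8.52 ± 6.97, SD, n = 3, the lowest from 3 counts), 6.94, 24.3, 39.2 and 6.18 CPM in CCR2high macrophages (19.1 ± 15.8, n = 4) and 49.0, 31.4, 53.2 and 11.6 CPM in CCR2low macrophages (36.3 ± 18.98, n = 4). Against the limit of 3 counts per Ly6Chigh library, mean *Gas6* was at least 6.28-fold higher in glioma monocytes (adjusted p = 0.00173), at least 14.1-fold in CCR2high (adjusted p = 0.000201) and at least 26.8-fold in CCR2low macrophages (adjusted p = 5.55e-05). Without the replicate with the highest value (mouse 22, 24 and 24) these bounds were 3.68-, 9.18- and 22.6-fold. In all 3 brain populations the replicates varied several-fold.

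*Pros1*, which codes for protein S, also an anticoagulant of the plasma, was expressed in blood and brain and did not pass the test between them. Ly6Chigh monocytes had 162, 213 and 152 CPM (176 ± 33.0, SD, n = 3) and Ly6Clow monocytes 91.0, 115 and 111 CPM (106 ± 12.99, n = 3). Means in the 6 brain populations ran from 98.3 to 187 CPM. Its log2 differences from Ly6Chigh monocytes were -0.75 ± 0.36 (SE) in GFPneg glioma monocytes, -0.65 ± 0.33 in CCR2high and 0.09 ± 0.34 in CCR2low macrophages, and none passed the test (adjusted p = 0.194, 0.194 and 0.896). All *Pros1* values of GFPneg glioma monocytes and GFPneg CCR2high macrophages lay below the lowest Ly6Chigh value.

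The direct phosphatidylserine receptors were both low in blood. *Stab1* had 0, 0 and 2.30 CPM in Ly6Chigh monocytes (11 counts, in mouse 24) and 0 in all Ly6Clow replicates. GFPneg glioma monocytes had 37.1, 38.5 and 206 CPM (94.0 ± 97.4, SD, n = 3), CCR2high macrophages 89.6, 88.8, 32.3 and 293 CPM (126 ± 115, n = 4) and CCR2low macrophages 72.1, 73.1, 71.7 and 392 CPM (152 ± 160, n = 4). Mouse 26 had the highest value in each. *Stab1* was higher than in Ly6Chigh monocytes by log2 fold changes of 6.32 ± 1.26 (SE, adjusted p = 0.00108), 6.75 ± 1.26 (adjusted p = 0.000388) and 7.01 ± 1.27 (adjusted p = 0.000244). Without mouse 26 the fitted values were 5.05, 5.94 and 5.98, with the mouse as a replicate block 5.08, 5.71 and 5.92, and without the Ly6Chigh replicate of mouse 24, which leaves the blood group at 0, 11, 11.43 and 11.69, all still called.

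*Timd4*, a receptor of resident macrophages, stayed at 12.7 CPM or less in every replicate. It was at 0 in the 3 Ly6Chigh replicates, and at 5.66, 12.7 and 6.51 CPM in Ly6Clow monocytes (8.30 ± 3.86, SD, n = 3). GFPneg glioma monocytes had 1.505, 5.89 and 9.03 CPM, CCR2high macrophages 6.94, 11.4, 0 and 7.09 CPM, and CCR2low macrophages 0.551, 3.30, 1.39 and 6.33 CPM. Against the limit that a count of 0 allows in Ly6Chigh monocytes, mean *Timd4* was at least 4.04-fold (adjusted p = 0.00804), 4.69-fold (adjusted p = 0.00397) and 2.13-fold (adjusted p = 0.0137) higher in glioma monocytes, CCR2high and CCR2low macrophages, and without the highest replicate (mouse 26, 23 and 26) at least 2.73-, 3.45- and 1.29-fold. The calls in glioma monocytes and CCR2low macrophages were lost without the Ly6Chigh replicate of mouse 24 (adjusted p = 0.0564 and 0.0821), without mouse 26 (adjusted p = 0.0545 and 0.0646) and with spike-in scaling (adjusted p = 0.0555 and 0.0805).

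Among the scavenger receptors, 0 of 4 passed the test between brain and Ly6Chigh monocytes. *Msr1* was high in both: Ly6Chigh monocytes had 390, 422 and 334 CPM (382 ± 44.6, SD, n = 3), GFPneg glioma monocytes 667, 382 and 733 CPM (594 ± 186, n = 3), CCR2high macrophages 979, 652, 544 and 705 CPM (720 ± 185, n = 4) and CCR2low macrophages 843, 392, 282 and 607 CPM (531 ± 248, n = 4). All CCR2high replicates were above the Ly6Chigh ones, with a log2 difference of 0.91 ± 0.50 (SE, adjusted p = 0.231). This difference passed in a fit of the compared populations alone (adjusted p = 0.0104). *Cd36* differed from Ly6Chigh monocytes by -0.82 ± 0.47, -0.34 ± 0.43 and -0.26 ± 0.43 on the log2 scale, with overlapping replicates.

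*Mrc1*, the marker most often used for macrophages in an alternatively activated or border-associated state, rested near the threshold. Ly6Chigh monocytes had 5.62, 18.7 and 41.2 CPM (21.8 ± 17.98, SD, n = 3) and GFPneg glioma monocytes 25.6, 42.8 and 146 CPM (71.4 ± 65.0, n = 3). The CCR2high macrophages had 49.8, 76.0, 66.1 and 318 CPM (128 ± 128, n = 4) and the CCR2low macrophages 62.2, 68.2, 85.1 and 369 CPM (146 ± 149, n = 4), so that both macrophage groups were wholly above Ly6Chigh monocytes. The log2 differences were 1.66 ± 0.998 (SE, adjusted p = 0.333), 2.51 ± 0.98 (adjusted p = 0.0792) and 2.69 ± 0.99 (adjusted p = 0.0553). With the mouse as a replicate block the macrophage differences passed (1.87, adjusted p = 0.0234, and 2.06, adjusted p = 0.0121), as they did with DESeq2 (adjusted p = 0.0211 and 0.0106). Without mouse 26 they did not (adjusted p = 0.216 and 0.15), nor with the block and without mouse 26 (adjusted p = 0.0878 and 0.0527). *Cd163* was at 12.3 CPM or less in every blood and GFPneg brain replicate but 1 Ly6Clow replicate (13.9 CPM).

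In each of the 3 brain comparisons, 5 of the 10 genes were called, all of them higher than in blood, beside 13.8% (glioma monocytes), 17.8% (CCR2high) and 20.2% (CCR2low) of all tested genes called in either direction and 11.1%, 12.7% and 14.1% called higher. The genes called were the TAM receptors, *Gas6* and both direct phosphatidylserine receptors. The median log2 difference of the 10 genes, with *Gas6* and *Timd4* at their bounds, was 1.84, 2.37 and 1.89, beside 0.12, 0.15 and 0.17 for all tested genes. Replicates lay wholly above those of Ly6Chigh monocytes for 5, 6 and 6 of the 10 genes, beside 21.6%, 21.8% and 21.1% of all tested genes. They lay wholly below for 1, 1 and 0 (*Pros1*), for which the share of all tested genes is not given. The 3 comparisons share the Ly6Chigh replicates.

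**Figure D2:**
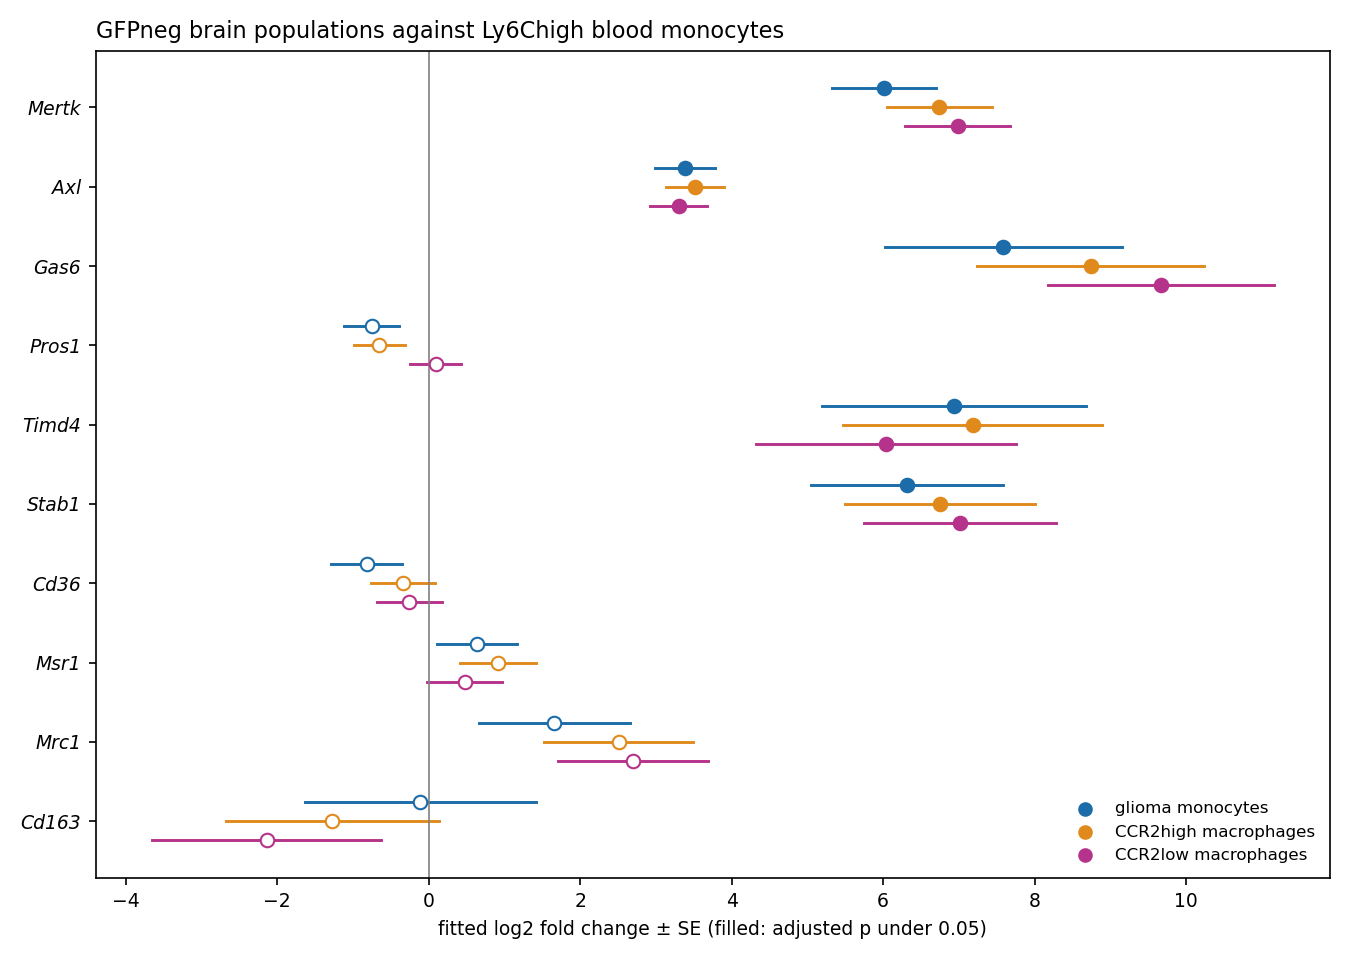
Fitted log2 fold change with its SE of each gene in GFPneg glioma monocytes, CCR2high and CCR2low macrophages against Ly6Chigh blood monocytes; filled points passed an adjusted p of 0.05. *Mertk*, *Axl*, *Gas6*, *Timd4* and *Stab1* lie to the right of 0 with filled points, and the fitted values of *Gas6* and *Timd4*, which are at 0 in all Ly6Chigh replicates, depend on the prior count and are not sizes of change.

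Within blood, 3 of the 10 genes differed between Ly6Clow and Ly6Chigh monocytes, beside 5.61% of all tested genes. *Cd36* had 162, 38.1 and 54.3 CPM in Ly6Chigh monocytes (84.7 ± 67.2, SD, n = 3) and 562, 686 and 653 CPM in Ly6Clow monocytes (634 ± 64.1, n = 3), with no overlap (higher in this way for 7.23% of all tested genes) and a log2 fold change of 2.91 ± 0.49 (SE, adjusted p = 0.000639). Without the Ly6Chigh replicate of mouse 22 this was 3.68. Its level in Ly6Clow monocytes also exceeded that of every brain replicate, of which the highest had 157 CPM. *Msr1* went the other way, with 19.8, 4.24 and 87.9 CPM in Ly6Clow monocytes (37.3 ± 44.5, n = 3) and a log2 fold change of -3.34 ± 0.58 (adjusted p = 0.000903), or -5.07 without the Ly6Clow replicate of mouse 24. *Timd4* was at least 6.12-fold higher in Ly6Clow monocytes (adjusted p = 0.0107), or at least 4.49-fold without mouse 23.

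The calls in blood changed with the processing. Another Ly6Clow library of mouse 23, of low complexity and left out by the quality rule, held 708 *Msr1* and 156 *Cd36* CPM (here without the TMM factor). The library used held 4.09 and 661 CPM. It was of low complexity too, with 6475 genes at 5 or more reads and 13.3% spike-in counts. The Ly6Clow libraries of mice 22 and 24 had 9512 and 10882 such genes and 2.47% and 0.779% spike-in counts. With the failed library in place of the one used, the *Msr1* difference was -0.92 (adjusted p = 0.464) and *Timd4* was not called (adjusted p = 0.0933). Spike-in scaling put the median log2 difference of all genes at -1.69, and with it 0 of the 3 were called: *Cd36* was at 1.19 (adjusted p = 0.335), *Msr1* at -4.16 (adjusted p = 0.111) and *Timd4* had an adjusted p of 0.231. In a fit of the compared populations alone 0 of the 3 were called either (adjusted p = 0.248, 0.413 and 0.407). The *Timd4* call was also lost without the Ly6Chigh replicate of mouse 23 (adjusted p = 0.0550) or 24 (adjusted p = 0.0777). Ly6Clow monocytes held more of the T and NK cell markers (551 to 889 CPM against 19.9 to 128 CPM) and of the dendritic cell markers (578 to 1895 CPM against 100.2 to 219 CPM), and the part of such cells was not tested.

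The other 7 genes did not pass between the blood populations. *Mrc1* had 1.42, 78.3 and 94.7 CPM in Ly6Clow monocytes, a spread that contained all 3 Ly6Chigh values (log2 difference 1.38 ± 0.99, SE, adjusted p = 0.439). The 3 *Pros1* values of Ly6Clow monocytes were below those of Ly6Chigh monocytes (-0.73 ± 0.36, adjusted p = 0.238), as for *Msr1* and 10.6% of all tested genes, and *Axl* overlapped (-0.72 ± 0.36, adjusted p = 0.249). *Cd163* had 9.43, 13.9 and 10.95 CPM in Ly6Clow and 0, 12.3 and 3.76 CPM in Ly6Chigh monocytes.

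Between glioma monocytes and macrophages, and between the macrophage populations, 0 of the 10 genes were called by edgeR. For GFPneg CCR2high macrophages against glioma monocytes edgeR called 0 genes of the 10, with 0 at an unadjusted p under 0.05 (5.38% of all tested genes) and 0 of 9 by DESeq2, beside 0.182% of all tested genes called. For GFPneg CCR2low macrophages against glioma monocytes edgeR also called 0, with 2 at an unadjusted p under 0.05 (8.46%) and 0 by DESeq2, beside 1.21%. These were the ligands: *Gas6* was at 2.08 ± 0.82 (SE, adjusted p = 0.381) and *Pros1* at 0.85 ± 0.34 (adjusted p = 0.4) on the log2 scale. The *Pros1* values of GFPneg CCR2low macrophages, 163, 178, 256 and 151 CPM (187 ± 47.3, SD, n = 4), were all above those of glioma monocytes, 84.3, 137 and 91.0 CPM (104 ± 28.7, n = 3), and of CCR2high macrophages, 117, 122, 142 and 65.4 CPM (112 ± 32.5, n = 4). For the latter the difference was 0.75 ± 0.31 (SE, adjusted p = 1), and 0 of the 10 genes were called by edgeR or DESeq2, with 1 at an unadjusted p under 0.05 (2.39%), beside 0.0% of all tested genes. Non-overlapping higher values were found for 6.44% and 1.63% of all tested genes in these 2 comparisons.

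Among GFPpos cells, CCR2low macrophages had 159, 148, 221 and 210 CPM of *Mertk* (184 ± 36.3, SD, n = 4) and glioma monocytes 50.4, 104 and 89.7 CPM (81.4 ± 27.9, n = 3), without overlap, at a log2 difference of 1.18 ± 0.48 (SE, adjusted p = 0.607). *Msr1* (lowest 672 against highest 635 CPM) and *Cd163* (10.8 against 0.816 CPM) did not overlap either. So 3 of the 10 genes were higher in this way, beside 3.61% of all tested genes. At an unadjusted p under 0.05 were *Mertk*, *Pros1* (0.82 ± 0.34, adjusted p = 0.649) and *Cd163* (5.93 ± 1.86, adjusted p = 0.368), so 3 in all (6.62% of all tested genes), beside 0 called by edgeR and 0.164% of all tested genes called. *Cd163* had 4 counts in the glioma monocytes of mouse 22 and 0 in mice 24 and 26, and DESeq2 called it (adjusted p = 0.0396), the 1 gene of the 10 it called. For GFPpos CCR2high macrophages against glioma monocytes 0 were called by edgeR or DESeq2, with 1 at an unadjusted p under 0.05 (*Cd163*, 5.82%), beside 0.0173%, and for GFPpos CCR2low against CCR2high macrophages 0 by either tool and 0 unadjusted (1.48%), beside 0.0%. *Pros1* of GFPpos CCR2low macrophages (lowest 142 CPM) lay above that of GFPpos CCR2high macrophages (highest 137 CPM), at a log2 difference of 0.52 ± 0.31 (SE). The share of all tested genes for this is not given. *Mertk* thus had mean levels of 75.5 and 81.4 CPM in glioma monocytes, 125 and 158 CPM in CCR2high and 148 and 184 CPM in CCR2low macrophages, GFPneg before GFPpos, and 0 of the differences tested between these populations passed.

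The comparison of GFPpos with GFPneg cells sets cells that carry tumor membrane beside cells of the same sort that do not. By edgeR 0 of the 10 genes were called in glioma monocytes, CCR2high macrophages, CCR2low macrophages or their average, beside 0.0% of all tested genes in each, and DESeq2 called 0 of the 10 as well (in glioma monocytes 0 of the 7 to which it gave an adjusted p). At an unadjusted p under 0.05 there were 0 of 10 in glioma monocytes (6.39% of all tested genes) and CCR2high macrophages (0.597%), 1 of 10 in CCR2low macrophages (*Cd163*, beside 1.59%) and 1 of 10 in the average (*Cd36*, beside 4.1%). The averaged log2 difference was smaller than its error for the TAM receptors, *Pros1*, *Timd4*, *Stab1* and *Msr1*. It was 0.25 ± 0.26 (SE) for *Mertk*, 0.10 ± 0.19 for *Axl* and -0.04 ± 0.19 for *Pros1*. *Timd4* was at 0.31 ± 0.57, *Stab1* at 0.41 ± 0.48 and *Msr1* at 0.15 ± 0.28. *Gas6* was at 0.73 ± 0.43. All of these had an adjusted p of 1.

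**Figure D3:**
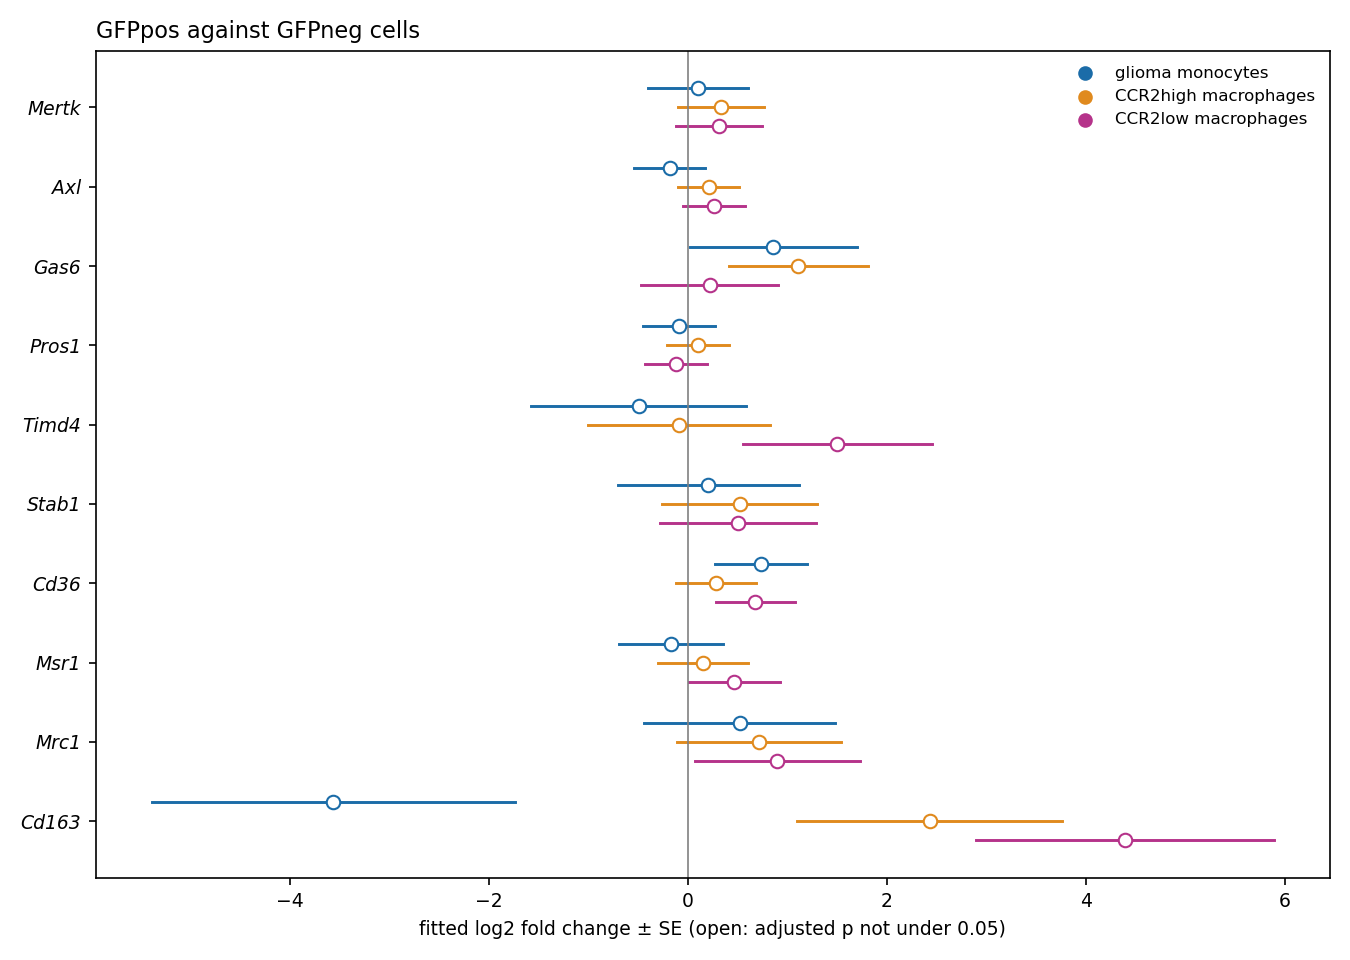
Fitted log2 fold change with its SE of GFPpos against GFPneg cells for each gene in glioma monocytes, CCR2high and CCR2low macrophages. All points are open, since 0 of the 10 genes passed an adjusted p of 0.05; *Mertk*, *Axl*, *Pros1* and *Msr1* lie near 0 and *Cd163* lies on opposite sides in monocytes and macrophages with wide errors.

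*Mrc1* was higher in the GFPpos cells of the same mouse in 11 of 11 pairs, which was true of 0.432% of all tested genes. The 11 pairs come from 4 mice, each with more than 1 cell type, and are not independent. In glioma monocytes of mouse 26 the ratio was 1.03. GFPpos glioma monocytes had 51.8, 105 and 150 CPM (102 ± 49.0, SD, n = 3) against 25.6, 42.8 and 146 CPM, CCR2high macrophages 78.7, 107, 161 and 494 CPM (210 ± 192, n = 4) against 49.8, 76.0, 66.1 and 318 CPM, and CCR2low macrophages 134, 253, 194 and 508 CPM (272 ± 165, n = 4) against 62.2, 68.2, 85.1 and 369 CPM. The ratios of the means were 1.43, 1.65 and 1.86, and 2.29, 1.81 and 2.69 without mouse 26. The SD between mice exceeded the difference of the means in each cell type, and the averaged log2 difference was 0.71 ± 0.50 (SE, adjusted p = 1, edgeR). With the mouse as a replicate block it was 0.91 (unadjusted p = 0.00589), and its adjusted p was 0.448, so it was not called.

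*Cd36* and *Stab1* were each higher in GFPpos cells in 9 of 11 pairs, beside 6.04% of all genes at 9 or more. *Cd36* had 93.2, 108 and 37.9 CPM in GFPpos glioma monocytes (79.8 ± 37.0, SD, n = 3) against 49.7, 21.95 and 72.3 CPM (48.0 ± 25.2, n = 3), and 117, 91.9, 157 and 86.8 CPM in GFPpos CCR2low macrophages (113 ± 32.0, n = 4) against 82.6, 70.5, 88.8 and 40.6 CPM (70.6 ± 21.4, n = 4). In the CCR2low macrophages all 4 mice had the higher *Cd36* value in GFPpos cells (8.86% of all tested genes), and the groups overlapped between 86.8 and 88.8 CPM. *Mertk*, *Timd4*, *Stab1*, *Mrc1* and *Cd163* were also higher in GFPpos cells of all 4 mice there. The median log2 difference of the 10 genes was 0.01 in glioma monocytes, 0.31 in CCR2high and 0.49 in CCR2low macrophages. For all tested genes it was 0.07, 0.01 and 0.02. The averaged log2 difference of *Cd36* was 0.57 ± 0.24 (SE, unadjusted p = 0.0285, adjusted p = 1). *Mertk*, *Gas6*, *Msr1* and *Cd163* were higher in GFPpos cells in 8 of 11 pairs, *Timd4* in 7 of 11, and *Axl* and *Pros1* in 5 of 11. Shares of all tested genes are not given for these counts, which are a description. For *Cd163* they include a pair of 0.816 against 0 CPM, in glioma monocytes of mouse 22.

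*Cd163* stood apart in the CCR2low macrophages. GFPneg cells had 1.101, 0, 2.78 and 1.05 CPM (2, 0, 6 and 2 counts) and GFPpos cells 10.8, 11.17, 11.8 and 68.0 CPM (23, 48, 41 and 130 counts). All GFPpos replicates were above all GFPneg ones, as was true of 1.21% of all tested genes. The log2 fold change was 4.39 ± 1.499 (SE, unadjusted p = 0.00704, adjusted p = 1), and the ratio of the means was 20.6, or 8.70 without mouse 26, where the unadjusted p was 0.0648. In CCR2high macrophages the values were 0, 2.81, 0 and 5.03 CPM in GFPneg and 4.95, 0, 3.62 and 38.2 CPM in GFPpos cells. In glioma monocytes they were 0, 2.68 and 12.3 CPM in GFPneg and 0.816, 0 and 0 CPM in GFPpos cells. Tests of the difference between these GFP effects gave -7.96 ± 2.37 for monocytes against CCR2low macrophages (unadjusted p = 0.00248) and -6.00 ± 2.26 against CCR2high macrophages (unadjusted p = 0.0136), both with an adjusted p of 1.

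**Figure D4:**
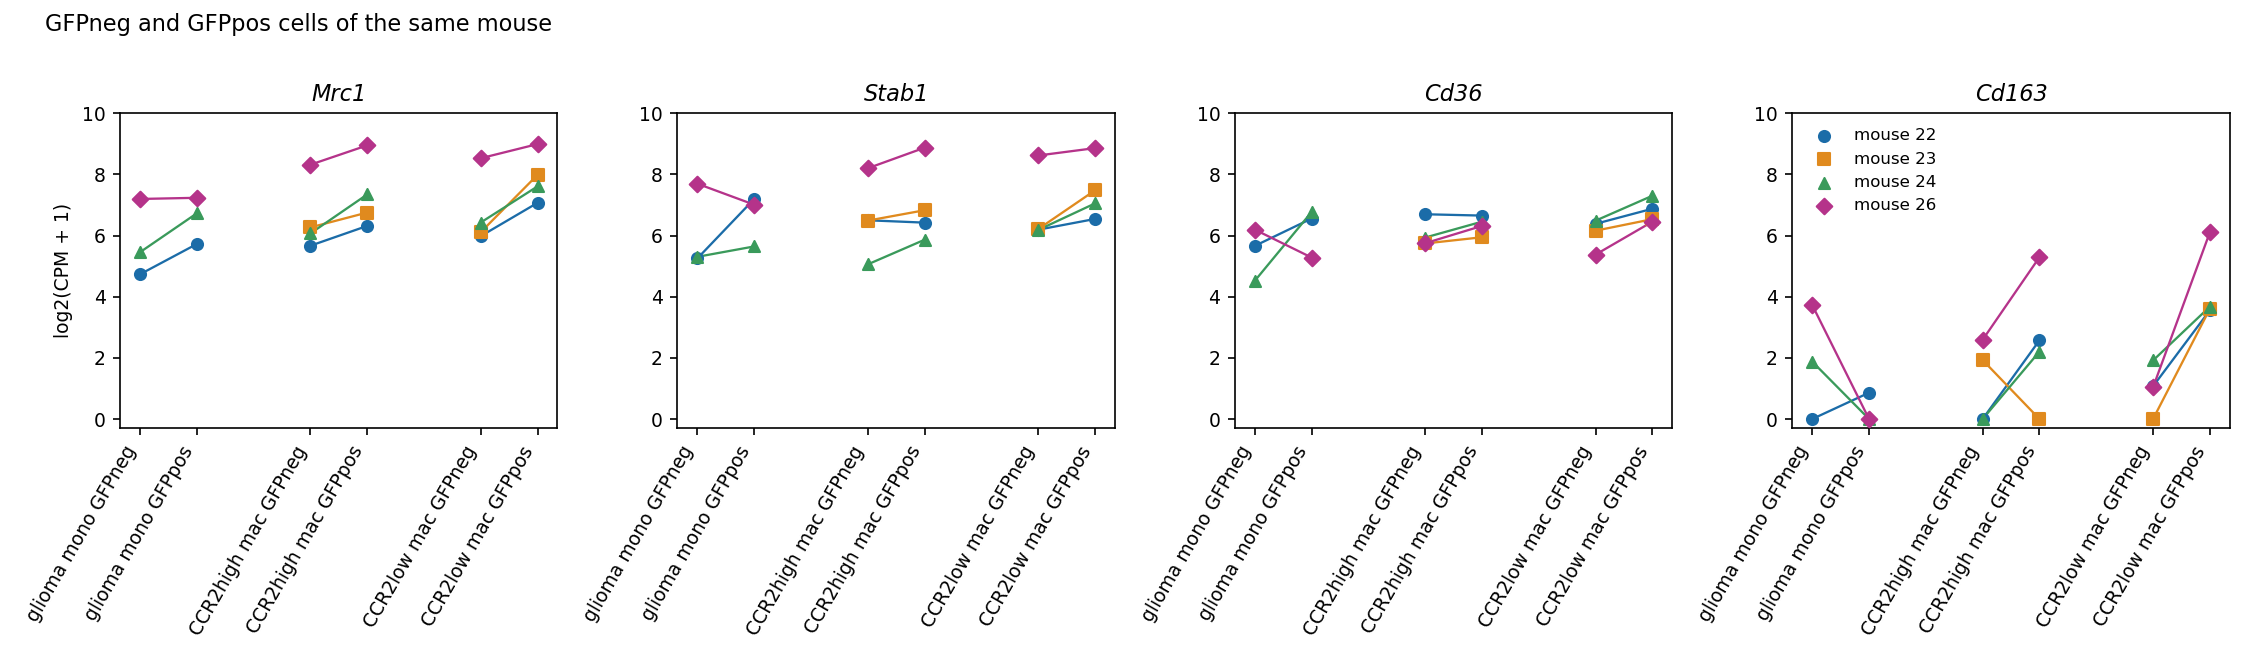
Levels of *Mrc1*, *Stab1*, *Cd36* and *Cd163*, as log2(CPM + 1), in GFPneg and GFPpos cells of the same mouse, joined by a line and colored by mouse. All 11 lines rise for *Mrc1*, 9 of 11 for *Stab1* and *Cd36*, and all 4 lines of *Cd163* rise in CCR2low macrophages.

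Markers of border-associated macrophages, the macrophages of meninges and vessels, which are known to express *Mrc1* and *Cd163*, moved with these genes in the macrophages. Of 8 such markers, none of them a gene of the set, 8 had the higher mean in GFPpos CCR2low macrophages. In each of the 4 mice 6 of the 8 were higher, beside 8.86% of all tested genes. *Folr2* was at 29.1 against 4.85 CPM and *Cbr2* at 26.2 against 4.76 CPM, GFPpos before GFPneg. In CCR2high macrophages the higher mean was in GFPpos cells for 8 of 8 (5 in every mouse) and in glioma monocytes for 5 of 8 (2 in every mouse). Shares of all tested genes are not given for these counts, nor for the higher means in CCR2low macrophages, so they are a description. The sum of the 8 markers was 759, 380, 405 and 1084 CPM in GFPneg and 921, 857, 724 and 1837 CPM in GFPpos CCR2low macrophages. It was 872, 604, 555 and 1392 CPM in GFPneg and 924, 803, 883 and 1678 CPM in GFPpos CCR2high macrophages. In glioma monocytes it was 755, 834 and 2310 CPM in GFPneg and 772, 622 and 994 CPM in GFPpos cells, lower in GFPpos cells of 2 of 3 mice, where *Mrc1* was higher in 3 of 3. *F13a1* of this list is also abundant in Ly6Chigh monocytes. Without it the sum was 56.2 to 71.3 CPM in Ly6Chigh and 14.3 to 136 CPM in Ly6Clow monocytes, and 319 to 1111 CPM in the brain. *Clec4n* held the largest part of that brain sum, with means of 280 to 585 CPM in the brain populations. The means of *Folr2*, *Cbr2*, *Lyve1* and *Cd209f* were 29.1 CPM or less there. In glioma monocytes the sum without *F13a1* was 354, 319 and 685 CPM in GFPneg and 659, 548 and 556 CPM in GFPpos cells. *Cd209f* was at 0 in both blood populations and *Lyve1* in Ly6Chigh monocytes. Other marker lists moved in the same pairs. The microglial sum was 2041, 3371 and 2201 CPM in GFPneg and 3101, 4308 and 3765 CPM in GFPpos glioma monocytes, and was higher in GFPpos cells of 3 of 4 mice in CCR2high and of 0 of 4 in CCR2low macrophages. In glioma monocytes the monocyte sum was 9809 to 12084 CPM in GFPneg and 5265 to 8869 CPM in GFPpos cells, and the macrophage sum 6724 to 7952 and 6864 to 14871 CPM. The sum of 8 astrocyte and glioma-like markers was 32.1 to 72.9 CPM (median 60.2) in GFPneg glioma monocytes. In GFPpos glioma monocytes it was 57.2 to 156 CPM (median 117). It was 41.7 to 69.4 CPM in GFPneg and 68.5 to 107 CPM in GFPpos CCR2low macrophages. In CCR2high macrophages the medians were 36.9 CPM in GFPneg and 44.3 CPM in GFPpos cells. These ranges overlapped in each cell type. The part of the cells of these lists in the *Mrc1* and *Cd163* differences was not tested.

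Mouse 26 had the highest *Mrc1* of all mice in 6 of 6 brain populations, as did 4.53% of all tested genes, and the highest *Stab1* in 5 of 6. Its *Mrc1* was 4.26, 1.91, 4.97, 4.27, 5.13 and 2.63 times the mean of the other mice (glioma monocytes, CCR2high and CCR2low macrophages, GFPneg before GFPpos), and its *Stab1* was 5.46, 1.32, 4.18, 5.51, 5.43 and 3.47 times that mean. *Mertk* and *Cd163* were highest in mouse 26 in 4 of 6 populations, and *Axl* in 0 of 6. The sum of the border-associated macrophage markers was highest in mouse 26 in 6 of 6 populations as well, or in 5 of 6 without *F13a1* (in GFPpos glioma monocytes 556 CPM, below 659 CPM in mouse 22). *Clec4n* held the largest part of the sum without *F13a1*. The microglial sum was highest in mouse 24 in 6 of 6. No blood sample came from mouse 26, so its blood levels were not analysed here.

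**Figure D5:**
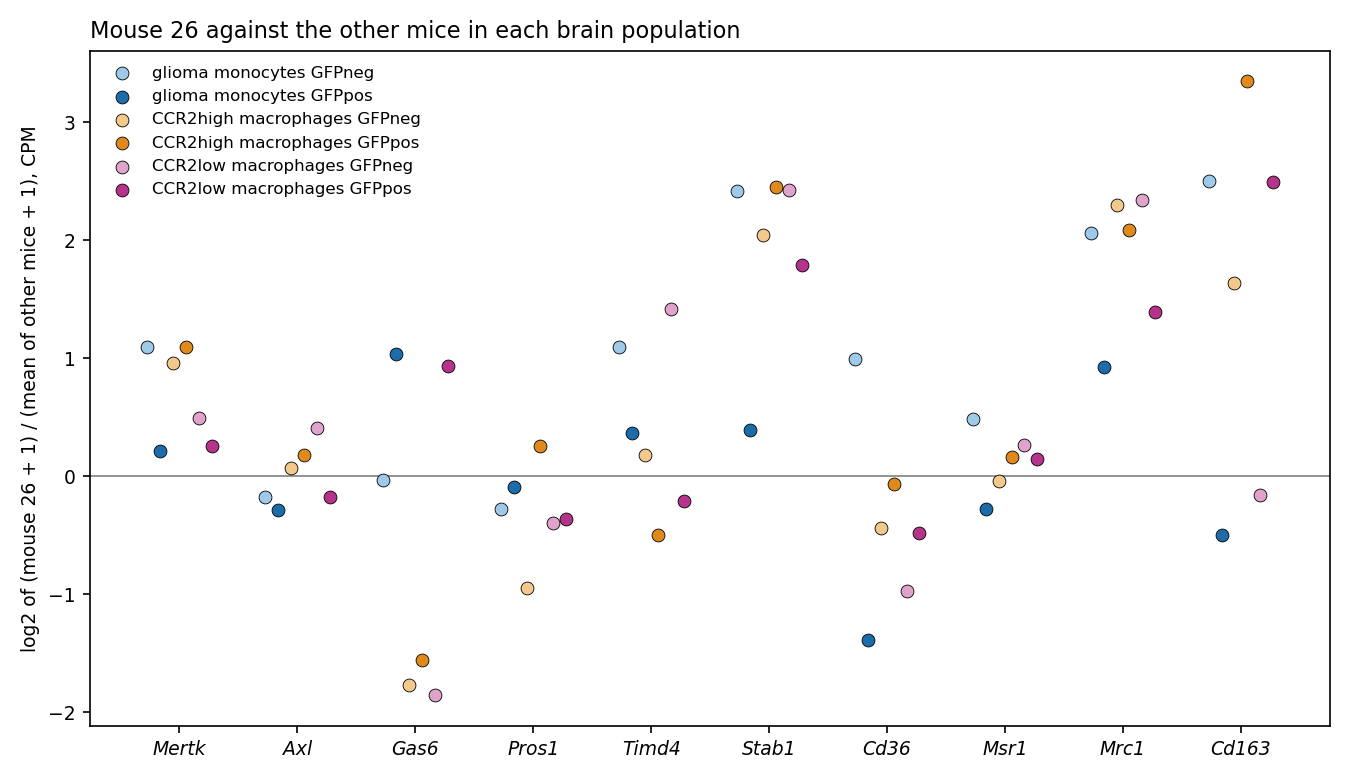
Level of each gene in mouse 26 over the mean of the other mice in the same brain population, as the log2 ratio of CPM + 1; each point is 1 of 6 brain populations. All points of *Mrc1* and *Stab1* lie above 0, and those of *Axl* lie close to 0.

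Over the 22 brain replicates, *Stab1* and *Mrc1* had a correlation of log2 CPM of 0.841, *Mertk* and *Mrc1* 0.753, *Mrc1* and *Cd163* 0.678, *Axl* and *Msr1* 0.628 and *Stab1* and *Cd163* 0.62, and the lowest was -0.287 for *Pros1* and *Msr1*. These replicates share mice and populations, and the values are a description. Over all 28 replicates the tested genes most like *Mertk* were *Scamp5* (0.981) and *Hcar2* (0.980), and those most like *Stab1* were *Fblim1* (0.969) and *Vcam1* (0.967). The closest to *Axl* was *Lgals3bp* (0.967), to *Gas6* *Ccna2* (0.938), to *Msr1* *Tars2* (0.944), to *Cd36* *Hfe* (0.859), to *Mrc1* *Abca1* (0.841), to *Pros1* *Cmtm6* (0.816), to *Timd4* *Tubb3* (0.754) and to *Cd163* *Fcna* (0.619). The high correlations hold the step between blood and brain.

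Other genes of the uptake pathway were described from lists of 74 genes, of which 59 were tested. Against Ly6Chigh monocytes, 15 were higher and 4 lower in GFPneg glioma monocytes, 12 and 7 in CCR2high and 14 and 8 in CCR2low macrophages. These were 19, 19 and 22 of 59, beside 13.8%, 17.8% and 20.2% of all tested genes called in either direction, shares that hold for each list below too. Bridging molecules other than the TAM ligands were higher in 5, 4 and 4 of 7 tested (lower in 0, 0 and 1), with a median log2 difference of 6.09, 3.02 and 2.48. In glioma monocytes *C1qa* (1266 ± 72.2 CPM, SD, n = 3, against a mean of 7.15 CPM in blood, or 2.30 CPM without mouse 22, log2 7.58, adjusted p = 8.93e-09) and *C1qc* (2146 ± 272 against 17.04 CPM, or 10.96 CPM without mouse 22, log2 7.03, adjusted p = 7.08e-09), subunits of the complement protein that coats apoptotic cells, were called. *Thbs1*, thrombospondin-1, had 586, 290 and 7208 CPM in glioma monocytes of mice 22, 24 and 26 against a mean of 33.6 CPM in blood (log2 6.33, adjusted p = 0.0486). Its mean without mouse 26 was 438 CPM (adjusted p = 0.254), and the call was also lost without the glioma monocytes of mouse 22 or any 1 of the 3 Ly6Chigh replicates (adjusted p = 0.0531 to 0.167). *C1qa*, *C1qb* and *C1qc* were also the 3 bridging molecules called higher in Ly6Clow than in Ly6Chigh monocytes.

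Other receptors for apoptotic cells were higher in 5, 5 and 5 of 11 tested and lower in 1, 2 and 1, with median log2 differences of 1.39, 1.44 and 1.44 (1.34, 0.44 and 1.09 with a gene at 0 in blood at its bound). Of these *Cd14*, which tethers apoptotic cells and binds lipopolysaccharide, was at 1668 ± 984 CPM in glioma monocytes (1103 CPM without mouse 26) against 86.8 CPM in Ly6Chigh monocytes (log2 4.27, adjusted p = 0.000133). The paired receptors *Cd300lf* (339 ± 17.1 against 33.3 CPM, or 21.03 CPM without mouse 23, log2 3.36, adjusted p = 1.51e-06) and *Cd300lb* (25.7 ± 10.7 against 475 CPM, log2 -4.21, adjusted p = 0.000368) moved in opposite directions. Of 9 other scavenger receptors tested, 1, 1 and 1 were higher and 1, 1 and 2 lower (median 0.07, -0.01 and -0.10, or -0.17, -0.26 and -0.10 with a gene at 0 in blood at its bound). *Cxcl16*, a chemokine that also binds oxidized lipoprotein and phosphatidylserine, rose (1010 ± 240 against 18.7 CPM, log2 5.76, adjusted p = 2.08e-07) and the HDL receptor *Scarb1* fell (115 ± 35.2 against 711 CPM, log2 -2.63, adjusted p = 0.000211).

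Genes downstream of the receptors came next. Of 13 tested genes of engulfment signalling 1, 0 and 0 were higher and 1, 1 and 1 lower, beside the same 13.8%, 17.8% and 20.2% of all tested genes (median -0.38, -0.45 and -0.38), and the scaffold *Elmo2* was at 149 ± 2.05 CPM in glioma monocytes against 521 CPM (log2 -1.80, adjusted p = 0.0175). Of 12 genes of cargo sensing and lipid efflux 2, 1 and 1 were higher and 0, 1 and 1 lower (median -0.04, -0.18 and -0.22), among them the cholesterol exporter *Abca1* (151 ± 146 against 13.8 CPM, log2 3.37, adjusted p = 0.00707) and the lysosomal cholesterol carrier *Npc2* (1623 ± 69.4 against 879 CPM, log2 0.89, adjusted p = 0.00573). Without mouse 26 the glioma monocyte mean of *Abca1* was 66.9 CPM (adjusted p = 0.106). *Npc2* was also the 1 listed gene that edgeR called between GFPneg CCR2low macrophages and glioma monocytes (DESeq2 called 4), where it was lower in the macrophages (923 ± 53.9 CPM, log2 -0.81, adjusted p = 0.0393), a call lost without any 1 of the 7 replicates (adjusted p = 0.0558 to 0.179). Of 7 receptors and ligands that restrain engulfment 1, 1 and 3 were higher and 1, 2 and 2 lower (median -0.20, -0.33 and -0.26), with *Pecam1* at 39.9 ± 10.3 against 10.4 CPM (log2 1.96, adjusted p = 0.0111) and *Cd300a* at 281 ± 78.6 against 1065 CPM (log2 -1.92, adjusted p = 0.000177). Against Ly6Chigh monocytes, further calls were lost without single replicates: *Elmo2* without the Ly6Chigh replicate of mouse 24 or the glioma monocytes of mouse 22 or 26 (adjusted p = 0.0873, 0.056 and 0.0573), *Abca1* without Ly6Chigh of mouse 22 or 23 (0.0547 and 0.0562), *Npc2* without Ly6Chigh of mouse 22 (0.0596) and *Pecam1* without Ly6Chigh of mouse 24 or glioma monocytes of mouse 26 (0.0868 and 0.0519). Between GFPpos and GFPneg cells 0 of the 59 listed genes were called by edgeR, with 6, 0 and 6 at an unadjusted p under 0.05 in glioma monocytes, CCR2high and CCR2low macrophages (beside 6.39%, 0.597% and 1.59% of all tested genes), and DESeq2 called 0.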

How the data were processed

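Per the study's methods, the authors aligned reads with STAR to mm10, removed duplicates with Picard 1.8.4 and counted reads per gene with htseq-count (intersection-strict) against a Gencode annotation of GRCm38.p3, and a strand setting is not given in the sources used here. The deposited values are whole-number read counts per gene in 30 library columns without normalization. Reads on no gene (6.28% to 17.4%) and on overlapping genes (1.58% to 1.9%) and 92 spike-in RNAs entered neither the library sizes nor the tests. Populations were taken from the cell type labels (the tissue label reads brain for blood samples too) and mice from the sample titles. A library had to hold 5 reads on each of at least 6000 genes, as in the study, which removed 1, and 2 libraries of 1 sample were summed. The study gives n = 3 per cell type after its exclusion, whereas the rule left 4 mice in each macrophage population here. The Ly6Clow library of mouse 23 that was used and 1 of the 2 summed libraries were deposited in a separate set of counts. Within Ly6Clow monocytes, mouse 23 and that set cannot be told apart.

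The 28 replicates (median 2140229.5 counts on genes) were fitted together in edgeR 4.0.16 (R 4.3.3) with TMM, filterByExpr and robust quasi-likelihood tests. Calls are two-sided, with Benjamini-Hochberg adjustment over all 11566 genes tested and a threshold of 0.05. The SE of a log2 fold change was derived from the test, as its absolute value over the square root of the F statistic. Where a group is at or near 0 this SE depends on the prior count, as the fold change does. CPM is the count over the TMM-scaled library size on a common scale, and correlations used log2 CPM with a prior count of 2. A count of 0 allows up to 3 counts of a library (95% confidence), which sets the lower bounds of fold changes, per library. The tests were tried on simulated counts first. Same-numbered replicates come from the same mouse, and their deviations from the population means had a median correlation of 0.136 (-0.0971 to 0.674, 86 pairs), against -0.0303 for different mice (256 pairs). Alternatives were other size factors, the spike-ins, other count filters, DESeq2 1.42.0, the mouse as a replicate block, other choices of library, only the compared populations, and leaving out each replicate. The second library alone, and leaving out mouse 26 with and without the block, were added after seeing the data.

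The 10 genes, the lists and the markers were chosen with earlier results of these data known. Named genes are all 10 and, from each pathway list, the 3 called genes with the largest log2 fold change among those with a mean of at least 10 CPM in a compared population. *C1qb*, markers and the nearest patterns are named in addition. Tables used pandas 2.3.3 and numpy 2.4.6 in Python 3.11.15.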

Additional observations from a re-analysis of the deposited data

Results flagged for a closer look

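In 8 of 40 groups of 4 replicates, 1 replicate stood far from the other 3, by a gap to its nearest neighbour that took most of the range of the group. The rule is meant to mark about 1 in 20 groups of independent, normally distributed values. The 40 groups hold the same 4 mice and genes that vary together, so the 8 cannot be read against that rate. Mouse 26 gave 6 of the 8. *Stab1* was at 468.3 CPM in its GFPpos CCR2high macrophages (others 57.2 to 113 CPM) and at 392.4 CPM in its GFPneg CCR2low macrophages (others 71.7 to 73.1 CPM). *Mrc1* was at 318.1 CPM in its GFPneg CCR2high (others 49.8 to 76.0 CPM) and at 368.6 CPM in its GFPneg CCR2low macrophages (others 62.2 to 85.1 CPM). *Cd163* was at 38.19 CPM in its GFPpos CCR2high (others 0 to 4.95 CPM) and at 68 CPM in its GFPpos CCR2low macrophages (others 10.8 to 11.8 CPM). The other two were *Axl*, low at 796.8 CPM in GFPpos CCR2high macrophages of mouse 23 (others 1357 to 1406 CPM), and *Cd36*, high at 102.8 CPM in GFPneg CCR2high macrophages of mouse 22 (others 52.5 to 60.2 CPM).

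The library of Ly6Clow blood monocytes of mouse 23 that failed the quality rule, with 3460 genes at 5 or more reads, is outside the main comparisons. As CPM without the TMM factor it held 707.9 of *Msr1*, 155.7 of *Cd36*, 19.23 of *Axl* and 10.07 of *Mrc1*, where the library used held 4.09, 661, 85.1 and 75.4. The library used was itself of low complexity, with 6475 genes at 5 or more reads and 13.3% spike-in counts. The summed libraries of GFPpos glioma monocytes of mouse 22 also differed, with 227 and 679 CPM of *Axl*, 272 and 663 of *Msr1*, 220 and 86.1 of *Stab1* and 65.4 and 18.2 of *Pros1*, the first of the pair holding 8.68% spike-in counts and the other 1.29%.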

How the results depend on the processing

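Of 2582 values of the 10 genes recomputed, 2555 kept their side of the threshold (120 of them uncalled values with another sign), 18 lost a call, 9 gained one and 0 called values reversed. Most of these values come from comparisons without a call in the main fit, where few could change side. The share kept therefore says little about the called values. The number of genes called in GFPneg glioma monocytes against Ly6Chigh monocytes was 3 with spike-in scaling (*Mertk*, *Gas6*, *Stab1*) and 3 in a fit of the compared populations alone (*Mertk*, *Axl*, *Stab1*, with 7 of the 10 tested). With at least 10 counts in every replicate 4 of the 10 were tested, and 1 (*Axl*) was called in each of the 3 brain populations against Ly6Chigh monocytes. Ly6Clow against Ly6Chigh monocytes gave 0 with spike-in scaling, 1 (*Cd36*) with the first library of each sample and 0 in a fit of the compared populations alone, and GFPpos CCR2low macrophages against GFPpos glioma monocytes gave 1 (*Cd163*) with DESeq2. Apart from the smaller number of genes tested, the cause was not tested. Leaving out each replicate gave 4 to 5 calls for glioma monocytes, 5 to 5 for CCR2high and 4 to 6 for CCR2low macrophages against Ly6Chigh monocytes (*Mrc1* gained without the GFPneg CCR2low replicate of mouse 22, adjusted p = 0.0487), 2 to 3 for Ly6Clow against Ly6Chigh monocytes and 0 to 0 for each of the other comparisons.

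With the mouse as a replicate block, *Mrc1* was called in CCR2high (1.87) and CCR2low macrophages (2.06) against Ly6Chigh monocytes, and no other call on the 10 genes changed. Over all tested genes the block moved the calls from 21 to 96 and from 140 to 284 (GFPneg CCR2high and CCR2low macrophages against glioma monocytes) and from 2 to 25 and from 19 to 61 (GFPpos). Spike-in scaling moved the median log2 difference of all genes to -1.69 for Ly6Clow against Ly6Chigh monocytes, -1.37 for GFPpos against GFPneg glioma monocytes and 1.70 for GFPpos CCR2low macrophages against glioma monocytes. Depth limits *Timd4*, *Cd163* and *Gas6* most, where few counts stand behind a value.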
